A study of Mus musculus with 40 samples.

Results

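The 10 skeletal muscle genes described here encode the working parts of fast muscle fibres: Myh1, Myh2, Myh4 and Mylpf of the thick filament, Acta1, Tnnt3 and Tnni2 of the thin filament, Ckm and Mb for energy and oxygen, and Pvalb for calcium buffering. They were named as a list, and a probe belonged to a gene when its symbol in the deposited fold change table was one of the 10. All 10 genes were found, on 15 probes, among 29411 symbols and 40628 probes of the array. The study asked how gene expression in mouse fat changes over months of a high-fat diet, with and without the plant formulation Kal-1. Its RNA came from subcutaneous stromal vascular cells (SVCs), the cells of fat other than the fat cells, which the series also calls infiltrating macrophages, and it was read on 1-colour Agilent arrays. Of 40 arrays, 38 could be placed in a group, and the other 2 had labels that contradicted each other. All animals were C57BL/6J mice, weaned at 3 to 4 weeks of age and then divided among 5 diets with 30 animals each.

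LFC was the low-fat control diet, with 10% of calories from fat, and had 11 arrays. HFC was a diet rich in fat (60% of calories) and sucrose, and also had 11 arrays. Both had 1 array each at days 1, 6, 10 and 14, at week 0, and at weeks 3, 6, 9, 12, 15 and 18. HF5, HF20 and HF75 were the HFC diet with 5 µg, 20 µg or 75 µg of Kal-1. HF5 had 6 arrays, at weeks 3 to 18, while HF20 and HF75 had 5 arrays each, at weeks 3 to 15. Days 1 to 14 and week 0 are called early below, and weeks 3 to 18 late. Liver arrays of the same experiment have been read with weeks counted from day 14, which would make day 14 and week 0 the same time. The labels here list them separately, and they were kept as separate pairs. Every label of diet and time had 1 array, and time points served as the replicates of a diet. The labels say that 5 animals per group were killed at each 3-week interval and that tissues were frozen before RNA was extracted, but not how many animals went into an array. All p-values below therefore measure the spread between arrays only.

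A striated muscle fibre shortens when myosin heads of the thick filament pull on actin of the thin filament. Calcium released from internal stores acts through the troponin complex to free the binding sites on actin, and parvalbumin speeds the return to rest in fast fibres. Subcutaneous fat of mice borders body wall muscle and a thin sheet of muscle under the skin, while macrophages and other stromal cells are not known for making these proteins.

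A level is given throughout as the log2 of the background-corrected intensity minus the log2 of the 75th percentile of the same array, so 0 is the brightness of the 75th percentile probe. Where a gene had several probes, the brightest on average over the 38 arrays is given, and a gene is called readable, or well above background, when this probe was. Brightness depends on the probe as well as on the RNA, so an order of brightness among genes is not an order of RNA amounts. The 75th percentile intensity ranged from 7.81 to 2161 over the 38 arrays, with a median of 754. The median spot was 4.86 times as bright as its local background, and 69.5% of the probes were well above background on the median array. A pair of LFC arrays stood apart. On the LFC array of week 3 only 17.2% of the probes were well above background, so its lowest readable level was -0.02, while on the LFC array of day 14 9104 spots were outliers. The titles of the day 6 arrays, and of the week 9 arrays of LFC, HFC, HF5 and HF20, carry a prefix or code that is absent from the other titles and not explained, while their tissue is given as for the other arrays. Precision was limited by how many arrays there were.

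The labelled cell type was checked with 7 macrophage markers (Emr1, Cd68, Csf1r, Itgam, Lyz2, Mrc1 and Cd163). All 7 were well above background on 34 of the 38 arrays, and their mean level ranged from -1.75 on HFC day 1 to 1.94 on HFC week 6. Markers of other cells were bright as well, with a median level over arrays of 4.18 for the 6 fibroblast markers. It was 2.65 for the 8 adipocyte markers, although SVCs are the cells of fat other than fat cells. For the 7 macrophage markers it was 0.39.

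The muscle genes were read on nearly every array. At least 31 of the 38 arrays had each gene well above background, and Mylpf, Acta1 and Tnni2 were so on all 38. The mean level of the 10 genes had a median of 0.99 over the arrays and ran from -5.13 to 5.99. That is a range of 11.12 on the log2 scale, or 2227-fold. It is a lower limit, since some probes were saturated on the highest array and some not above background on the lowest.

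**Figure D1:**
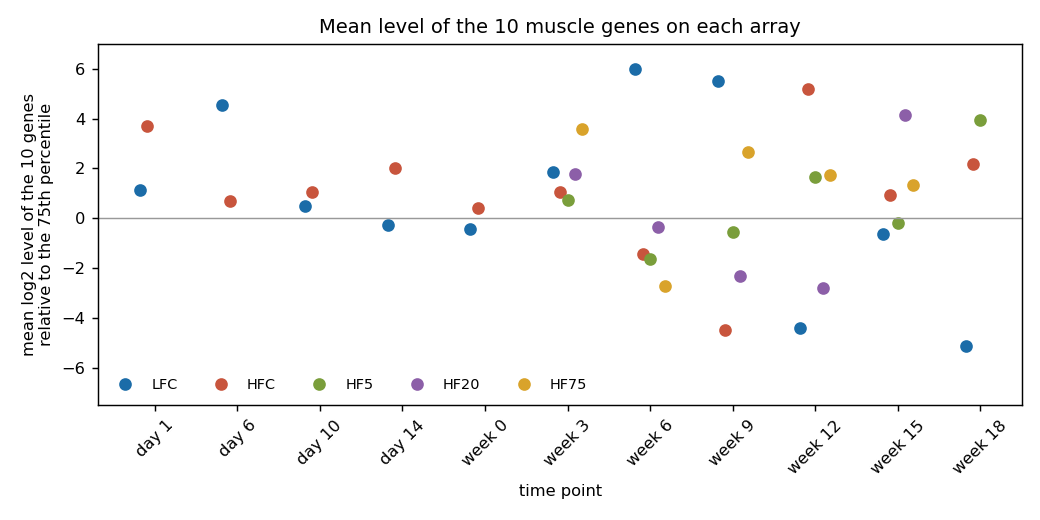
Mean log2 level of the 10 muscle genes (0 is the 75th percentile of an array) on each of the 38 arrays (vertical axis) by time point (horizontal axis), with 1 point per array coloured by diet. The points spread from -5.13 to 5.99, and the spread is wider from week 6 on than before.

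The arrays with the highest mean level were LFC week 6 (5.99), LFC week 9 (5.50) and HFC week 12 (5.19). They were followed by LFC day 6 (4.55), HF20 week 15 (4.14) and HF5 week 18 (3.93). The lowest were LFC week 18 (-5.13), HFC week 9 (-4.47) and LFC week 12 (-4.42). High and low arrays thus occurred in the same diets, and the LFC group held both the highest and the lowest array of all. On LFC week 9 the probes of 7 of the 10 genes were saturated, and on LFC week 6 those of 5, so true levels there may be higher than read. On LFC week 18 only 4 of the 10 genes were well above background, and on HFC week 9 only 6.

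**Figure D2:**
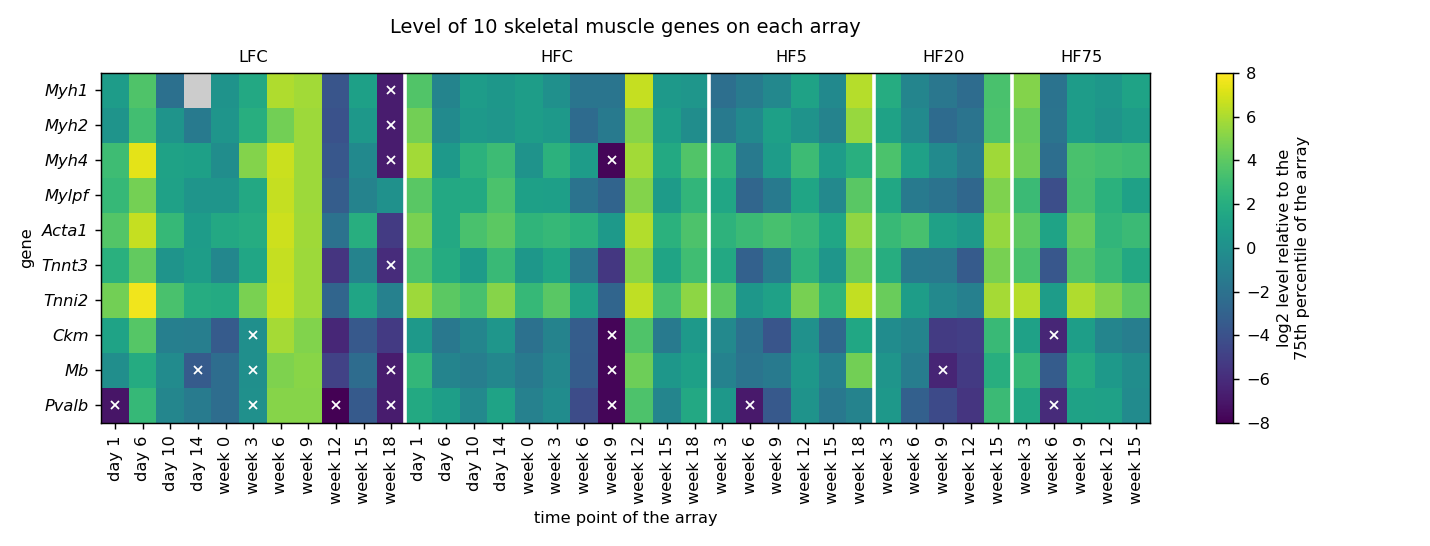
Log2 level of each of the 10 muscle genes (vertical axis) on each array (horizontal axis, by diet and time point), with colour from -8 to 8. A cross marks a value that was not well above background and a grey field marks a dropped outlier spot. Whole columns are bright or dark, as on LFC week 6 and HFC week 9.

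By diet, the mean level of the 10 genes was 1.32 ± 2.43 in HF75 (SD, n = 5), 1.03 ± 2.52 in HFC (n = 11) and 0.79 ± 3.63 in LFC (n = 11). It was 0.66 ± 1.96 in HF5 (n = 6) and 0.09 ± 2.90 in HF20 (n = 5). No neighbours in this order differed by more than their spread. Over weeks 3 to 15, which all diets share with 5 arrays each, the order was LFC (1.66 ± 4.35), HF75 (1.32 ± 2.43), HFC (0.25 ± 3.56), HF20 (0.09 ± 2.90) and HF5 (0.01 ± 1.26). The order changed with the time points used, and the SDs were again larger than the steps between diets. In such bulk samples, fewer muscle cells and less RNA per cell cannot be told apart.

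In the thick filament, Myh4, the heavy chain of the fastest fibres, had levels from -6.78 to 7.32 in LFC (median 1.21) and from -7.76 to 5.81 in HFC (median 2.26). In HF5 its level ran from -1.42 to 3.00 with a median of 1.47. The HF20 levels of Myh4 were 3.50, 1.16, -0.35, -1.48 and 5.75 at weeks 3, 6, 9, 12 and 15. The levels in HF75 at those weeks were 4.54, -2.22, 3.42, 3.13 and 2.99. Myh4 was read highest on LFC day 6, LFC week 6 and HFC week 12. Its probe was saturated on LFC weeks 6 and 9 and HF20 week 15, so true levels there may be higher than read. Myh4 was lowest on HFC week 9 and LFC week 18, where the probe used was not above background. On HFC week 9 the second probe of Myh4 was readable, at -6.09. All 5 diets overlapped. The limma difference of HFC against LFC was -0.06 ± 1.78 (SE, 11 pairs, higher in 7 and lower in 4, adjusted p = 0.995).

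Myh1, the IIx heavy chain, had levels from -6.78 to 6.57 over the arrays, and was read highest on HFC week 12 and lowest on LFC week 18. The probe was saturated on LFC week 9 (5.76, a lower limit) and not above background on LFC week 18. Its spot was an outlier on LFC day 14, so its comparison of HFC with LFC rests on 10 pairs. Myh2, the IIa heavy chain, ran from -6.78 on LFC week 18 to 5.66 on LFC week 9. On HF5 week 18 the levels of Myh1, Myh2 and Myh4 were 6.22, 5.54 and 2.10. The level of Myh4 minus that of Myh2, taken relative to its median over arrays, was -5.00 there, the lowest of 36 arrays with both genes well above background. On HFC week 9, where the Myh4 probe used was not above background, it was -7.82 or less. It was read highest on LFC day 6, at 2.58. The adult fast myosins thus did not move by the same amount on every array. Mylpf, the fast regulatory light chain, ran from -4.17 on HF75 week 6 to 6.61 on LFC week 6. On LFC week 18, where 6 of the 10 genes were not above background, Mylpf was readable at 0.09.

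Some other probes of the myosins gave differences with other signs. For HFC against LFC, the second probe of Myh1 gave -0.79 where the one used gave 0.21. The second probe of Myh4 gave 0.01 where the first gave -0.06. A dimmer probe of Myh2 had the other sign in 4 comparisons, for instance -0.32 against 0.38 for HFC against LFC. Late against early in HFC, the second probe of Myh1 gave -1.76 where the one used gave -0.35. Across the arrays, these dimmer probes of Myh1 and Myh2 followed the ones used with r = 0.73 and r = 0.85. The second probe of Myh4 did so with r = 0.99 and that of Tnnt3 with r = 0.98 (38 arrays, 37 for Myh1). The remaining probe of Myh2 followed the one used with r = 0.996 and kept its sign in every comparison.

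In the thin filament, Tnni2, the fast troponin subunit that blocks contraction at rest, had levels from -2.79 to 7.66 in LFC (median 3.43) and from -2.81 to 6.44 in HFC (median 3.88). In HF5 it ran from 0.46 to 6.54 with a median of 3.23. Its HF20 levels were 4.37, 0.92, -0.48, -1.04 and 5.87 at weeks 3, 6, 9, 12 and 15. The HF75 levels of Tnni2 were 6.23, 0.83, 6.10, 5.02 and 3.94 at the same weeks. Tnni2 was well above background on all 38 arrays, and its 4 lowest were HFC week 9, LFC week 12, HF20 week 12 and LFC week 18. Here too the diets overlapped. In limma, HFC against LFC gave 0.36 ± 1.30 (SE, higher in 6 of 11 pairs, adjusted p = 0.973).

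Acta1, skeletal muscle actin, ran from -5.21 on LFC week 18 to 6.80 on LFC week 6. It was readable on all 38 arrays, at 0.68 on HFC week 9, 1.30 on HF75 week 6 and 0.59 on HF20 week 12. Its SD over the arrays, 2.24, was the smallest of the 10 genes. The level of Acta1 minus that of Tnni2, relative to its median, was 4.37 on HFC week 9 and -3.34 on LFC week 18. Actin and troponin I were therefore low to different degrees on those arrays. Tnnt3, the fast troponin subunit that binds tropomyosin, ran from -5.99 on LFC week 18 to 6.61 on LFC week 6, and it followed the mean of the other 9 genes most closely, with r = 0.97 over the 38 arrays.

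For energy, Ckm, the muscle creatine kinase that restores ATP, had levels from -6.21 to 5.86 in LFC (median -1.11) and from -7.76 to 3.60 in HFC (median -0.82). In HF5 it ran from -3.77 to 1.53 with a median of -1.24. The HF20 levels of Ckm were -0.20, -0.81, -5.21, -5.01 and 2.85 at weeks 3, 6, 9, 12 and 15. Its HF75 levels were 1.17, -6.25, 0.98, -0.75 and -1.14. Ckm was high on LFC weeks 6 and 9, LFC day 6 and HFC week 12. It was not well above background on HFC week 9, HF75 week 6 and the dim LFC week 3 array. No diet stood apart from the others. Its HFC against LFC difference was -0.69 ± 1.64 in limma (SE, higher in 6 of 11 pairs, adjusted p = 0.964).

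Mb, myoglobin, the oxygen store of fibres, ran from -7.76 on HFC week 9 to 5.17 on LFC week 9 and was well above background on 33 of the 38 arrays. On HF5 week 18 it was at 4.62, and on HFC day 1 at 2.61. Relative to its median, the level of Mb minus that of Tnni2 was 3.67 on LFC week 9 and 2.46 on LFC week 6, and -1.63 on LFC day 6. Saturated Tnni2 probes on these 3 arrays bear on those values.

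Pvalb, parvalbumin, the calcium buffer of the fastest fibres, had levels from -8.13 to 5.12 in LFC (median -1.35) and from -7.76 to 3.55 in HFC (median -0.20). In HF5 it ran from -6.89 to 0.55 with a median of -1.21. Its HF20 levels at weeks 3, 6, 9, 12 and 15 were 0.56, -3.11, -4.41, -5.52 and 2.93. In HF75 they were 1.59, -6.04, 1.24, 1.15 and -0.30. Pvalb was the gene most often below the readable range, on 7 of the 38 arrays. On LFC day 1 it was not above background while the other 9 genes were. HFC against LFC gave 1.04 ± 1.89 for Pvalb in limma (SE, higher in 7 of 11 pairs, adjusted p = 0.954). On HF5 week 18 it was at -0.83, and Pvalb minus Tnni2 was -3.29 relative to its median. That was the lowest of the 31 arrays with both genes well above background. Where Pvalb was not above background the value can lie lower, as on LFC day 1, at -7.60 or less. HF5 week 18 was thus high for Myh1, Myh2 and Mb and not for Pvalb or Myh4.

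The 10 genes varied together from array to array. Among their 45 pairs, Pearson's r over the 38 arrays had a median of 0.85 and a lowest value of 0.71, for Mylpf with Acta1. Myh1 and Myh2 were the closest pair by Pearson's r, with r = 0.97. By Spearman's rho, Tnnt3 and Tnni2 (0.97) were closer than Myh1 and Myh2 (0.91). These correlations are descriptions, and the points share arrays, slides and a common scaling. Each gene also varied more than most genes of the array. Among 20155 genes readable on 50% of the arrays or more, the SD of Pvalb (3.53) ranked 38th from the highest and that of Acta1 ranked 792nd, against a median SD of 1.00 and a 95th percentile of 2.14. Every one of the 10 genes was above that percentile.

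The pattern of the 10 genes was compared with that of 25344 other genes. The 12 most like their mean level were Atp2a1, Trdn, Ckmt2, Pgam2, Cmya3, Actn3, Myh8, Myoz1, Mybpc2, Cox6a2, Tcap and Apobec2. Their Pearson's r over 38 arrays ran from 0.97 for Atp2a1, the calcium pump of fast fibres, to 0.93 for Apobec2, where the median over all genes was 0.05. Of the 12 genes, 10 were on lists of muscle genes drawn up for this comparison, and Cmya3 is an older name of Xirp2, a gene on such a list. The lists were chosen with earlier results of these data known, so this overlap is a description and not a test. In all, 20 genes had r over 0.9.

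HFC was set against LFC at each time point to ask what the diet did. At week 9, where both arrays lay on the same slide, all 10 muscle genes were lower in HFC, with a median difference of -9.78. All 10 were also lower at week 6 (median -8.07) and at day 6 (-3.63, same slide). All 10 were higher at week 12 (9.38), week 18 (7.53) and week 0 (0.81, same slide). At day 14 all 9 genes read were higher, with a median of 2.63. Mixed signs were seen at the other times, with medians of 2.04 at day 1, 0.45 at day 10, -0.70 at week 3 and 2.06 at week 15. Single HFC and LFC arrays thus differed by large folds, in opposite directions at neighbouring times.

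**Figure D3:**
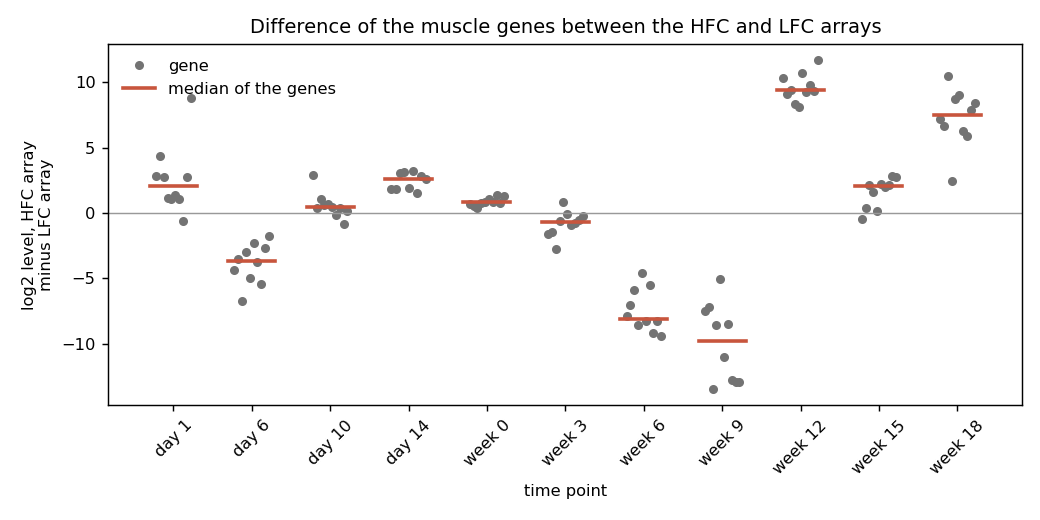
Log2 level on the HFC array minus that on its LFC partner (vertical axis) for each muscle gene (grey points), by time point (horizontal axis), with the median of the genes as a red line. The medians run from -9.78 at week 9 to 9.38 at week 12, and the genes of a time point lie together.

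Over the 11 pairs the median difference of the 10 genes was 0.28, against -0.08 for all 29215 probes tested, with 7 genes higher and 3 lower. None of the 10 passed the limma test at an adjusted p of 0.05, where 0% of the probes did, and 0 of the 10 had an unadjusted p under 0.05, as 820 probes did. The smallest SE was 1.20, for Acta1, whose difference of 0.81 had a 95% interval from -1.76 to 3.39. The sign of the median rested on single time points. When 1 time point was left out it ran from -0.68 (without week 12, 9 of 10 lower) to 1.26 (without week 9, all 10 higher). It was -0.45 without week 18, -0.05 without day 1 and 1.03 without week 6, with all 10 higher in the last. The 4 pairs on the same slide were those of day 6 and weeks 0, 3 and 9. Titles at day 6 and week 9 carry the unexplained prefix or code, and the LFC array of week 3 was dim. In these 4 pairs the median of the fitted differences was -3.14 and all 10 were negative, although all 10 genes were higher in HFC at week 0. Without the time points of the doubtful LFC arrays, day 14 and week 3, it was 0.28 with 7 genes higher and 3 lower, though Myh4 (0.03) and Mb (-0.13) changed sign.

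HF5 was set against HFC at weeks 3 to 18 to ask what the lowest dose of Kal-1 added. At week 9 all 10 genes were higher in HF5, with a median difference of 3.97, and at weeks 12 and 15 all 10 were lower, with medians of -3.43 and -0.98. At weeks 3, 6 and 18 the signs were mixed, with medians of 0.13, -0.10 and 1.34. Of the 10 genes, 0 passed the limma test, where 0% of 29200 probes did, and 0 had an unadjusted p under 0.05, as 1507 probes did. Over the 6 pairs the median was 0.16, against -0.00068 for all probes, and 7 genes were higher and 3 lower. It was -0.44 without week 9, -0.18 without week 18, 0.37 without week 15 and 0.80 without week 12 (9 of 10 higher). It was -0.78 in the 3 pairs on the same slide (weeks 12, 15 and 18), where all 10 fitted differences were negative and 2 had an unadjusted p under 0.05, as 1055 of 28685 probes did. At week 18 alone 8 of 10 genes were higher in HF5. Without week 9 all 10 were negative as well, again with 2 under 0.05, as 1119 of 28324 probes were. The median was 0.04 with quantile normalization. With another background correction it was -0.26, and the median of all probes was then -0.30.

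For HF20 against HFC, all 10 muscle genes were lower at week 12, with a median of -8.15, and all 10 were higher at weeks 3 and 15, with medians of 0.61 and 3.32. At weeks 6 and 9, 9 of 10 were higher, with medians of 1.12 and 1.88. The large negative difference at week 12 was against the HFC array with the highest muscle level, and 4 of the 5 time points had a higher median in HF20. Of the 10 genes, 0 passed the limma test, where 0% of 30831 probes did, and 0 had an unadjusted p under 0.05, as 3649 probes did. Over the 5 pairs the median was -0.22, against 0.08 for all probes, with 2 genes higher and 8 lower. It was -0.59 with another background correction and -0.37 with quantile normalization. It was -1.10 without week 15 (9 of 10 negative), -0.72 without week 9 (all 10 negative), -0.47 without week 6 and -0.40 without week 3. Without week 12 it was 1.51, and all 10 differences were positive. In that fit 6 of the 10 had an unadjusted p under 0.05, as 1505 of 32318 probes did, and 0 passed the adjusted threshold. Over all 5 pairs some lists of other cells had medians away from 0, though 0 of their genes passed. The median was -1.33 for smooth muscle (8 of 8 lower, 3 with an unadjusted p under 0.05) and 1.38 for adipocytes (7 of 8 higher, 2). For T cells it was -1.74 (3 of 4 lower, 2). Their part in the muscle levels was not tested.

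For HF75 against HFC, all 10 muscle genes were higher at week 9 (median 8.83) and week 3 (2.15), and all 10 were lower at week 12 (-3.23). At week 6, 8 of 10 were lower (-1.31), and at week 15, 8 of 10 were higher (0.42). Of the 10 genes, 0 passed the limma test, where 1.01% of 28910 probes did, and 0 had an unadjusted p under 0.05, as 4208 probes did. The 293 probes past the threshold became 145 with no filter on dim probes, 1 without pairing by time point and 0 (without week 3) to 207 (without week 9) when 1 time point was left out. All 10 differences were positive, apart from Ckm with another background correction (-0.12), with a median of 1.07 against -0.01 for all probes. That other correction brought the median of the 10 down to 0.38. The largest was 2.02 ± 1.39 for Tnni2 (SE, higher in 3 of 5 pairs, adjusted p = 0.588). The shared sign did not hold without week 9, when 9 of 10 were negative (median -0.49), or without week 3, when 3 of 10 were (0.84). Without week 6, 12 or 15 all 10 were positive, with medians of 1.87, 2.20 and 1.26, and without week 12 2 of the 10 had an unadjusted p under 0.05, as 3142 of 30277 probes did. At week 9 the HFC array was among the lowest of all, and its title carries the unexplained code while that of HF75 does not. Only the pairs of weeks 12 and 15 were scanned on the same day, and over these 2 pairs all 10 fitted differences were negative, with a median of -1.34, although 8 of 10 genes were higher at week 15. There, 0 of 31176 probes passed. The 3 doses were compared with the same HFC arrays, so their differences are not independent of each other.

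The late arrays were set against the early ones within each diet. In both diets the arrays of days 1 to 14 were scanned after the late ones, and those of week 0 among them, so time on diet and time of scanning cannot be told apart for days 1 to 14. In LFC, the mean level of the 10 genes was -0.44 on week 0, -0.26 on day 14, 0.49 on day 10, 1.14 on day 1 and 4.55 on day 6. Late LFC arrays ran from -5.13 to 5.99 with a median of 0.60, so they lay on both sides of the early ones. In limma 0 of the 10 genes differed, where 0% of 29383 probes did, and 0 had an unadjusted p under 0.05, as 663 probes did. The median difference was -0.39, against 0.25 for all probes. It was -0.01 with another background correction and -0.06 with quantile normalization, with 5 genes higher and 5 lower in both. When 1 array was left out it ran from -1.54 (without week 6) to 0.61 (without week 12). It was -1.48 without week 9, 0.25 without week 18 and 0.45 without day 6, and all 10 genes were lower without week 6 or without week 9. It was -0.997 without day 14 and week 3. Some lists of other cells had larger medians here, such as -2.12 for adipocytes (7 of 8 lower, 0 with an unadjusted p under 0.05), -2.29 for T cells (4 of 4 lower, 2) and -1.90 for fibroblasts (6 of 6 lower, 0).

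In HFC, the early mean levels were 0.43, 0.71, 1.06, 2.02 and 3.69 on week 0, day 6, day 10, day 14 and day 1. Late HFC arrays ran from -4.47 to 5.19 with a median of 0.99. All 10 genes had a lower mean late than early, with a median difference of -1.04 against -0.26 for all probes, and the groups overlapped. With another background correction the median was -0.51 against 0.27 for all probes, and Ckm (0.098) and Mb (0.50) changed sign. Of the 10 genes, 0 passed the limma test, where 0% of 32453 probes did, and 0 had an unadjusted p under 0.05, as 3707 probes did. When 1 array was left out the median ran from -1.93 (without week 12, all 10 lower, 1 with an unadjusted p under 0.05, as 3070 of 32386 probes had) to 0.04 (without week 9, 5 of 10 lower). It was -0.47 without day 1, with 4 of 10 higher. Some lists of other cells also had medians away from 0 here, though 0 of their genes passed: -2.81 for brown fat (4 of 4 lower, 2 with an unadjusted p under 0.05), -1.63 for adipocytes (8 of 8 lower, 3), -0.71 for endothelial cells (5 of 5 lower, 2) and 1.13 for macrophages (7 of 7 higher, 2). Their part in the muscle levels was not tested.

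Whether the HFC effect itself differed between late and early times was tested as an interaction. Of the 10 genes, 0 passed it in limma, where 0% of 29215 probes did, and 0 had an unadjusted p under 0.05, as 1240 probes did. The median of the 10 interactions was -0.38, against -0.50 for all probes, with 7 genes negative and 3 positive. When 1 time point was left out it ran from -2.42 (without week 12, all 10 negative) to 1.83 (without week 9, all 10 positive). It was -1.94 without week 18, -1.57 without day 6, 1.20 without week 6 and 0.21 without day 1, and 0.10 without day 14 and week 3. With another background correction the median of all probes moved to 0.70 and that of the 10 genes to -0.27, and 4908 probes passed, 0 of the 10 genes among them. With quantile normalization the median of the 10 was -0.79. The largest interaction on the probes used, -2.16 for Pvalb, had a 95% interval from -10.53 to 6.21. The second probe of Myh1 gave -2.58 where the one used gave -0.50. The SEs of the 10 genes were 2.48 to 3.88. Some lists of other cells had larger medians here, though 0 of their genes passed. The median was 4.05 for T cells (4 of 4 positive, 3 with an unadjusted p under 0.05), 3.54 for B cells (4 of 4 positive, 1) and -2.08 for brown fat (4 of 4 negative, 1). It was 2.16 for Schwann cells (4 of 4 positive, 0), 2.14 for fibroblasts (6 of 6 positive, 0) and 2.10 for smooth muscle (7 of 8 positive, 0).

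Other parts of the muscle machinery were read from lists of genes not among the 10. Of 21 other sarcomere genes measured, with Tpm2, Tnnc2 and Tpm1 on the brightest probes, 20 were readable on 50% of the arrays or more, and their mean level followed that of the 10 genes with r = 0.97 (38 arrays). The 13 genes of calcium release and excitation (Cacna1s, Hrc and Ryr1 on the brightest probes) did so with r = 0.93, and the 12 muscle energy enzymes (Eno3, Pfkm and Cox8b) with r = 0.88. Single genes of a list could follow weakly, as Tpm1 (r = 0.09), Cox8b (0.36), Tpm2 (0.43) and Pfkm (0.50) did, while Tnnc2 had r = 0.92. The 7 slow-fibre genes, led by Myl3, Tnnt1 and Myh7, followed with r = 0.75, though Tnnt1 alone had 0.33. Their highest array was HF5 week 18, with a mean level of 2.70 and 7 of 7 genes readable. On that array Myh4 (2.10) was near its median of 2.18 over the 38 arrays, so the fast fibre genes were not all high there. The 8 myogenic and satellite cell genes (Tmem8c, Myf6 and Myog) were dim, with a median level of -5.23, and 6 of them were readable on 50% of the arrays or more. Their r with the 10 genes was 0.60 (Spearman's rho 0.79), and that of Tmem8c alone 0.02. The highest mean level of this list, -0.02 on the dim LFC week 3 array, was the lowest readable level there, to which dimmer values were raised. Such values bear on r. The 8 heart muscle genes, with Actc1, Tnni3 and Myl7 on the brightest probes, followed with r = 0.34 only.

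None of the sarcomere, slow-fibre, calcium, energy enzyme, myogenic or heart muscle genes passed the limma test in any of the 7 comparisons. Of all probes tested, 1.01% passed for HF75 against HFC and 0% in the other comparisons. For HFC against LFC, 0 of 20 sarcomere genes tested had an unadjusted p under 0.05, as 820 of all 29215 probes did, and their median difference was 0.05, with 10 higher and 10 lower. That median was -0.45 for the calcium genes (1 of 12 under 0.05), -0.37 for the energy enzymes (0 of 11), -0.10 for the slow-fibre genes (0 of 7) and -0.91 for the myogenic genes (1 of 6). For HF75 against HFC, where 4208 of all 28910 probes were under 0.05, the medians were 0.67 for the sarcomere genes (1 of 20), 0.42 for the calcium genes (0 of 12) and -0.45 for the slow-fibre genes (0 of 7). The energy enzymes had 0.29 there (0 of 11) and the myogenic genes 0.65 (0 of 6).

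Of the 2 developmental myosin heavy chains, Myh8, the perinatal form, followed the 10 adult genes with r = 0.95, and Myh3, the embryonic form, with r = 0.31. Myh3 was the 1 gene of the muscle lists that passed a test, and it was singled out after its values were seen. It passed for HF75 against HFC, where 1.01% of all 28910 probes did. Its levels in HF75 were 3.04, -1.40, -1.05, 2.94 and 1.20 at weeks 3, 6, 9, 12 and 15, and in HFC -3.71, -3.95, -5.04, -0.96 and -3.999. Myh3 was higher in HF75 than in HFC at every one of these weeks. The highest of those HFC levels lay above the lowest pair of HF75 levels, so the groups overlapped. The difference was 4.48 ± 0.57 on the log2 scale (SE, 5 of 5 pairs, limma adjusted p = 0.0232). It was 2.81 with another background correction, 3.91 to 4.96 when 1 time point was left out, and 4.54 in the pairs scanned on the same day, with an adjusted p of 0.529 in the last. The adjusted p was 0.120 without pairing by time point and 0.0559 to 0.0889 when 1 time point was left out, and over all settings tried it ran from 0.0181 to 0.529. Myh3 was also high on LFC week 3 (4.70, the dim array) and HF5 week 12 (2.27). It passed the test in none of the other 6 comparisons, in which 0% of all probes passed. Myh8 differed by 0.99 ± 1.16 for HF75 against HFC (3 of 5 pairs higher, adjusted p = 0.788), and whether Myh3 differed from Myh8 or from the adult myosins was not tested.

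Markers of other cell types were set beside the muscle genes as mean levels over the 38 arrays. Pearson's r with the mean of the 10 genes was -0.41 for the 7 macrophage markers (Spearman's rho -0.46) and 0.33 for the 4 Schwann cell markers (0.32). It was 0.31 for the 6 fibroblast and 0.27 for the 5 endothelial markers, but their rho was -0.090 and 0.088. LFC week 18 was the lowest array for both lists and for the muscle genes. Smooth muscle (8 genes), adipocyte (8), T cell (4) and B cell (4) markers had r of 0.26, 0.22, 0.20 and 0.18, with rho of 0.11, 0.16, 0.25 and 0.27. Keratinocyte (5 genes), brown fat (4), simple epithelial (5) and erythroid (3) markers had r of 0.15, 0.14, 0.11 and -0.03, with rho of 0.13, 0.083, 0.029 and 0.026. None of these lists followed the muscle genes as the sarcomere, calcium and energy enzyme genes did.

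On arrays with high or low muscle levels, some of these markers were extreme too. On LFC week 18, the lowest array, the mean levels of the fibroblast (-5.96, 1 of 6 readable, Col1a1 on the brightest probe) and adipocyte markers (-5.03, 3 of 8, Fabp4) were the lowest of all 38. Their summed signals, in units of the 75th percentile, were 0.130 and 1.13. The 8 smooth muscle markers (-3.45, 5 of 8, Actg2, summed 5.70) and the 5 endothelial markers (-4.28, 4 of 5, Pecam1, summed 0.488) were lowest there too. The 3 erythroid markers were highest on that array (6.52, 3 of 3, Hbb-b1, summed 275), and all 7 macrophage markers were readable at a mean of 1.28 (Lyz2, summed 21.4). So the muscle genes were not alone in being low on LFC week 18. On HFC week 9, by contrast, the fibroblast (4.35, 6 of 6, Dcn, summed 168) and adipocyte markers (5.00, 8 of 8, Retn, summed 288) were above their medians. On LFC week 6, the highest array for the muscle genes, the smooth muscle (4.36, 8 of 8, Acta2, summed 469) and simple epithelial markers (3.97, 5 of 5, Krt8, summed 225) were at their highest as well. HFC week 12 had the highest Schwann cell level (2.72, 4 of 4, Mbp, summed 68.5) and LFC week 9 the lowest keratinocyte level (-6.01, 2 of 5, Krt5, summed 0.0879). LFC week 12 had the lowest T cell (-4.45, 4 of 4, Cd3d, summed 0.190) and simple epithelial levels (-6.06, 3 of 5, Krt19, summed 0.123). The adipocyte markers were at their highest on LFC day 6 (6.44) and the keratinocyte markers on HF5 week 18 (2.53), both high arrays for the muscle genes. On HFC day 1, 7th from the highest for the muscle genes, the brown fat markers were at their highest (4.68, 4 of 4, Ucp1, summed 174) and the macrophage markers at their lowest (-1.75, 7 of 7, Emr1, summed 3.47). Other extremes fell on arrays with muscle levels between. The fibroblast markers were highest on LFC day 10 (5.13) and the endothelial markers on HFC day 10 (2.84), 23rd and 18th for the muscle genes. The erythroid markers were lowest on HF75 week 15 (0.29), 16th for the muscle genes. In HF75 against HFC, 1 of 6 fibroblast markers, Dpt, named after its values were seen, passed the limma test (-2.43 ± 0.38, lower in 5 of 5 pairs, adjusted p = 0.0395, and 0.0101 to 0.553 over the settings tried). Of all 28910 probes, 1.01% passed in that comparison. The medians there were -0.87 for the fibroblast and -1.29 for the macrophage markers, of which 5 of 6 and 5 of 7 had an unadjusted p under 0.05, as 4208 of all 28910 probes did. The simple epithelial markers had the same sign as the muscle genes there, with a median of 1.88 (5 of 5 higher, 3 under 0.05), and 3 of 8 adipocyte markers were under 0.05 with a median of 0.25 (4 higher and 4 lower). What these cells contributed to the muscle levels was not tested.

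The genes moved together, so the stretches before their starts were read from a set of promoters taken from RefSeq (build GRCm38.p6). The set at hand held 8 of the 10 genes, with 11 starts, and lacked Tnnt3 and Tnni2. In the 250 bases before the start, 4 motifs that are textbook elements of muscle promoters or of promoters at large were searched on both strands: TATAAA, the E box (CANNTG) of the MyoD family, the MEF2 site and the CArG box of serum response factor. TATAAA was found before 3 of the 11 starts, and in 12.3% of 32536 distinct mouse promoters. The E box was found before 8 of the 11 (6 of the 8 genes), and in 66.2% of promoters. A MEF2 site was found before 3 of the 11 and in 2.89% of promoters, and a CArG box before 2 of the 11 and in 1.48%. In Myh1 and Myh4 the MEF2 match overlaps a TATAAA match on the other strand. Such matches describe letters only and say nothing of binding.

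Myh1, Myh2 and Myh4 lie side by side on chromosome 11. On the arrays Myh1 and Myh2 were the closest pair by Pearson's r (0.97), though not by Spearman's rho. Myh4 followed Myh1 and Myh2 less closely, with r = 0.79 for each. The longest run of bases common to the windows of all 3 was 20 bases, and of the 32536 promoters only these 3 hold it. The windows are shown for this shared run, which is in capitals. They are chr11:67199852-67200101 for Myh1, chr11:67170777-67171026 for Myh2 and chr11:67237562-67237811 for Myh4, all on the plus strand.
Myh1: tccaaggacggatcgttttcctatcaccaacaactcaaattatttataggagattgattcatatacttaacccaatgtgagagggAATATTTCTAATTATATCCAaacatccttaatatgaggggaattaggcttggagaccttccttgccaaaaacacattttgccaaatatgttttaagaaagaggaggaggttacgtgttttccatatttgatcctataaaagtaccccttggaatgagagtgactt
Myh2: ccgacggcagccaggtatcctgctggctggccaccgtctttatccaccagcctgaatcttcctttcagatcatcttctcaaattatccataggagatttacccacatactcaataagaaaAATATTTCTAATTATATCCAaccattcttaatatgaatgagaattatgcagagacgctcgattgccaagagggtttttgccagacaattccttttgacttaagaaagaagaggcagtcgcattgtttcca
Myh4: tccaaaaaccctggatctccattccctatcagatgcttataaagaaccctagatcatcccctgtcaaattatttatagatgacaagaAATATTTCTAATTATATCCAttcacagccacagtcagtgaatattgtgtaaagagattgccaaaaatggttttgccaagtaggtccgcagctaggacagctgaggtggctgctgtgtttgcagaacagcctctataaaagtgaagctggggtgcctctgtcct

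The window of Acta1, chr8:123894776-123895025 on the minus strand, is shown for its motifs, of which it holds 3 of the 4. The window of Myh4 holds all 4. In the Acta1 window, capitals mark 2 E boxes, the CArG box 73 bases before the start and TATAAA 7 bases before it.
Acta1: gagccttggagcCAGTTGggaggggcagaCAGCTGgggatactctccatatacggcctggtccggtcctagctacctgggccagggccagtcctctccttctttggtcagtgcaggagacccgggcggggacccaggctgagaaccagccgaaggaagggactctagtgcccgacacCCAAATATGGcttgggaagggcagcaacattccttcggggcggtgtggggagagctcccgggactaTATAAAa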

How the data were processed

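The deposited files of 40 arrays hold intensity values that, per the file headers, were made by Agilent Feature Extraction 10.5.1.1 (the labels name version 9.1), which removed background and spatial trend inside an array, with no normalization from array to array. A table by the authors gave gene symbols, which were used, and 40 columns of log2 fold changes against the low-fat array of the same time point, which were not.

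Outlier spots were dropped, the log2 of the 75th percentile of an array was subtracted from its log2 intensities, and duplicate spots were averaged. A probe was well above background if 50% of its spots were, and other values were raised to the lowest such level on their array. Labels gave the diet and time of each array, and 2 arrays of week 18 with conflicting labels were left out. Diets were compared with limma 3.58.1 in R 4.3.3, paired by time point, and late with early arrays as groups. Probes readable on 50% of the arrays of either group were tested, with a Benjamini-Hochberg adjusted p under 0.05 over all probes tested. The fits were tested on simulated data. Tables and plots were made with Python 3.11.15, NumPy 2.4.6, pandas 2.3.3 and matplotlib 3.10.9.

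The named genes were all 10 muscle genes, those on the 3 brightest probes of each muscle list, and the 12 genes most like the mean of the 10. Named besides were the macrophage markers, the brightest marker of a list on single arrays, and Myh3 and Dpt, which passed a test. The muscle lists were sarcomere, slow-fibre, calcium, energy enzyme, myogenic, developmental myosin and heart muscle genes. The other lists were macrophage, adipocyte, fibroblast, endothelial, smooth muscle, Schwann cell, T cell, B cell, brown fat, keratinocyte, simple epithelial and erythroid markers. The 10 genes and the lists were chosen with earlier results of these data known.

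The alternatives were no filter, quantile normalization, normexp background correction (offset 50), no raising, no pairing, only pairs on the same slide, the mean of all probes of a gene, and leaving out each time point or array. Chosen after seeing the data were leaving out day 14 and week 3, and only pairs scanned on the same day.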

Additional observations from a re-analysis of the deposited data

Results flagged for a closer look

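In groups of 4 to 10 arrays, the highest or lowest level of each muscle gene and of their mean was set beside its neighbours with Dixon's critical values for gaps. Of 77 such groups, 10 had an array far from the others, and chance flags about 1 in 20 groups. The genes share arrays, so these are not 10 separate events. The causes were not tested.

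On HF5 week 18, Myh2 was at 5.54 (other HF5 arrays -1.44 to 1.08) and Mb at 4.62 (others -1.87 to 0.47). On HF75 week 6, Myh4 was at -2.22, Mylpf at -4.17, Tnnt3 at -3.68 and Pvalb at -6.04, the last not above background. Among early HFC arrays, Myh2 was at 4.62 and Mb at 2.61 on day 1. Among late HFC arrays, Myh1 was at 6.57 on week 12, and Myh4 was at -7.76 on week 9, where the probe used was not above background and the second probe was, at -6.09.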

How the results depend on the processing

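Of 1018 results of single muscle genes under other settings, 829 kept their sign and 189 changed it, and 0 passed the limma threshold (lowest adjusted p 0.142). The causes of changes below were not tested, except where fewer pairs or arrays were used, which leaves other values in the mean.

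For HF75 against HFC, the 293 probes past the threshold became 145 with no filter, 1 with no replicate block (arrays not paired by time point) and 0 in pairs scanned on the same day. Leaving out 1 time point gave 0 (week 3) to 207 (week 9), with 8 without week 6, 92 without week 12 and 35 without week 15. Late against early, leaving out 1 array gave 0 to 1 probes in LFC (1 without week 3) and 0 to 3 in HFC (3 without week 0). For the late against early HFC effect, normexp gave 4908 in place of 0, while the median of all probes moved from -0.50 to 0.70. In the other comparisons the count was 0 under all settings run.

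With normexp background correction, the sign changed for HFC against LFC in Myh4 0.58 and Mylpf 0.0214. HF5 against HFC had Myh4 -0.63, Tnnt3 -0.26, Ckm -0.62 and Mb -0.26. HF20 against HFC had Acta1 0.0371 and Ckm -0.57. HF75 against HFC had Ckm -0.12. Late against early LFC had Myh2 0.38 and Mylpf 0.13. Late against early HFC had Ckm 0.10 and Mb 0.50. The late against early HFC effect had Ckm 0.25. With quantile normalization, the sign changed for HF5 against HFC in Myh4 -0.042 and Tnnt3 -0.0123. HF20 against HFC had Ckm -0.23. Late against early LFC had Myh2 0.76 and Ckm 0.0594. The late against early HFC effect had Tnnt3 0.16. Without raising values, the sign changed for HF20 against HFC in Pvalb 0.23. Late against early LFC had Myh1 -0.12 and Mb -0.0568. The late against early HFC effect had Myh4 -0.0401. In pairs on the same slide, the sign changed for HFC against LFC in Myh1 -3.20, Myh2 -2.89, Acta1 -2.08, Tnnt3 -3.08, Tnni2 -3.05, Mb -3.83 and Pvalb -3.39. HF5 against HFC had Myh2 -0.33, Myh4 -1.77, Acta1 -0.75, Tnnt3 -0.82, Tnni2 -0.44, Ckm -1.26 and Mb -0.68. With the mean of all probes, the sign changed for HFC against LFC in Myh1 -0.29. Without day 14 and week 3, the sign changed for HFC against LFC in Myh4 0.026 and Mb -0.13. Late against early LFC had Myh1 -0.18 and Mb -0.57. The late against early HFC effect had Tnnt3 0.39 and Ckm 0.25. In pairs scanned on the same day, the sign changed for HF75 against HFC in Myh1 -2.73, Myh2 -2.48, Myh4 -0.72, Mylpf -1.22, Acta1 -1.47, Tnnt3 -1.02, Tnni2 -0.42, Ckm -2.03, Mb -2.28 and Pvalb -0.98.

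Leaving out 1 time point or array at a time moved these differences across 0, with the lowest and highest values given. They were, for HFC against LFC, -0.92 to 1.11 (Myh1), -0.49 to 1.13 (Myh2), -1.11 to 1.28 (Myh4), -1.10 to 0.59 (Mylpf), -0.55 to 1.62 (Tnnt3), -0.53 to 1.24 (Tnni2), -1.74 to 0.52 (Ckm), -0.82 to 1.41 (Mb) and -0.0253 to 2.43 (Pvalb). They were, for HF5 against HFC, -1.37 to 0.87 (Myh1), -0.83 to 1.27 (Myh2), -1.48 to 0.80 (Myh4), -0.77 to 0.24 (Mylpf), -0.38 to 0.80 (Acta1), -0.71 to 0.68 (Tnnt3), -0.39 to 0.75 (Tnni2), -0.43 to 1.07 (Ckm) and -0.19 to 1.87 (Mb). They were, for HF20 against HFC, -1.47 to 1.46 (Myh1), -1.31 to 1.05 (Myh2), -0.43 to 3.24 (Myh4), -1.43 to 1.53 (Mylpf), -0.95 to 1.25 (Acta1), -1.11 to 2.01 (Tnnt3), -1.22 to 1.27 (Tnni2), -0.74 to 2.48 (Ckm), -1.48 to 1.4959 (Mb) and -0.94 to 2.24 (Pvalb). They were, for HF75 against HFC, -0.73 to 2.06 (Myh1), -0.51 to 1.63 (Myh2), -0.55 to 3.00 (Myh4), -0.71 to 1.55 (Mylpf), -0.63 to 1.17 (Acta1), -0.51 to 2.34 (Tnnt3), -1.26 to 2.02 (Ckm), -0.32 to 3.04 (Mb) and -0.48 to 2.37 (Pvalb). They were, for late against early LFC, -1.07 to 1.5001 (Myh1), -1.24 to 1.25 (Myh2), -2.53 to 0.17 (Myh4), -1.18 to 0.80 (Mylpf), -2.44 to 0.0825 (Tnnt3), -1.90 to 0.52 (Ckm), -0.96 to 1.43 (Mb) and -0.97 to 1.72 (Pvalb). They were, for late against early HFC, -1.52 to 0.31 (Myh1), -1.74 to 0.0337 (Myh2), -2.21 to 0.50 (Myh4), -0.99 to 0.10 (Acta1), -1.88 to 0.39 (Ckm) and -1.71 to 0.74 (Mb). They were, for the late against early HFC effect, -2.57 to 1.08 (Myh1), -2.44 to 0.81 (Myh2), -1.95 to 2.83 (Myh4), -3.26 to 0.12 (Mylpf), -0.27 to 2.48 (Acta1), -2.12 to 2.23 (Tnnt3), -1.58 to 1.96 (Tnni2), -2.40 to 2.11 (Ckm), -2.75 to 1.70 (Mb) and -4.48 to 0.43 (Pvalb).

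Normexp also moved the median of all probes, to -0.30 for HF5, -0.39 for HF20 and -0.23 for HF75 against HFC. Late against early, that median was -0.51 in LFC and 0.27 in HFC with normexp, and 0.49 and 0.02 with quantile normalization.

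Signal over background limits the dim levels: the median spot was 4.86 times its local background, from 1.53 on the dim LFC week 3 array to 55.4 on LFC day 14.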

Other observations

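The 2 arrays of week 18 whose labels contradicted each other had mean levels of the 10 muscle genes of 0.96 and 1.98, with all 10 genes well above background on both. The first had 21710 outlier spots. On the HF75 array of week 9, the deposited values were rounded to 3 significant digits.

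Only the spread between arrays was measured, with 1 array per diet and time point, and time points were used as replicates. Levels not above background are upper limits, and saturated ones lower limits. The labels do not tell how the cells were separated from the tissue around them, and no test here tells the cell of origin of the muscle RNA.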
